A study of Mus musculus with 6 samples.

Results

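The proteasome subunit genes were taken from the deposited table as every gene whose symbol consists of Psm, a letter from a to g and a number, without the interferon-inducible Psmb8 and Psmb9. This gave 46 of 22880 genes, made up of 17 genes of the 20S core, 6 ATPase genes of the 19S base and 23 genes of the remaining base, the lid, the activators, the inhibitor and the assembly chaperones. Of these 46 genes, 44 passed the filter on low counts.

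RNA was sequenced from MC-38GFP cells, a mouse colon adenocarcinoma line carrying green fluorescent protein (GFP), that were grown as orthotopic tumors in the cecum wall of C57BL/6J mice. Per the labels, the cells of both groups had been transduced with the vector pLKO.1-puro, and they were recovered by sorting for GFP without CD45, a marker of leukocytes, and CD31, a marker of endothelium. The Mock group of 3 libraries had a mock knockdown, and the HIF-1α-KD group of 3 libraries had a knockdown of HIF-1α, the oxygen-regulated subunit of hypoxia-inducible factor 1. Whether each line is a clone or a pool is not given in the sources used here. The age of the mice is not given in the sources used here. It is not stated whether the libraries come from separate tumors, so p-values measure the spread between these libraries, which may be technical.

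The proteasome is the protease that degrades ubiquitin-tagged proteins in the cytosol and nucleus. Its 20S core is a barrel of alpha rings, which gate the entrance, and beta rings, which carry the catalytic sites, and its 19S cap binds ubiquitin, removes it and unfolds the substrate with a ring of ATPases. Where oxygen is present, HIF-1α itself is degraded by the proteasome after hydroxylation and ubiquitination by the von Hippel-Lindau ligase. The comparison asks whether the transcripts of this machine differed between tumor cells with and without HIF-1α knockdown.

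Promoter sequences are shown for 4 members as examples. They are the catalytic subunit genes Psmb5 and Psmb6 and, of the 3 members whose groups did not overlap, as given further on, Psmc4 and Psmf1. The other of these members, Psmc5, held none of the motifs marked below and is not shown. Each example holds a marked motif, while 16 of the tested members held neither ACGTG nor GCGTG, Psmb6 among them. Other members hold the same motif letters, as counted further on. The sequences come from RefSeq on GRCm38.p6, are written 5′ to 3′ on the strand of the gene and begin 250 bases before the RefSeq start. Those of Psmb6 and Psmf1 run to the base before the start. Those of Psmb5 and Psmc4 stop 27 and 9 bases short of it, where the annotation places an exon. Positions are counted back from the RefSeq start, so the bases left out are included in the count. Capitals mark ACGTG or GCGTG, the core letters of the hypoxia response element, and TGACNNNGC, the core of the antioxidant response element, on either strand. For Psmf1 the RefSeq start lies inside the longer gene that GENCODE annotates.
Psmb5 (chr14:54618023-54618245, minus strand): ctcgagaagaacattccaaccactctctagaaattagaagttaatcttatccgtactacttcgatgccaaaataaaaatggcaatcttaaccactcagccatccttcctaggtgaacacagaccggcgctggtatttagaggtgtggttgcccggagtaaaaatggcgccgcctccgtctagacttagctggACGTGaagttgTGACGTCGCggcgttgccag
Psmb6 (chr11:70525107-70525356, plus strand): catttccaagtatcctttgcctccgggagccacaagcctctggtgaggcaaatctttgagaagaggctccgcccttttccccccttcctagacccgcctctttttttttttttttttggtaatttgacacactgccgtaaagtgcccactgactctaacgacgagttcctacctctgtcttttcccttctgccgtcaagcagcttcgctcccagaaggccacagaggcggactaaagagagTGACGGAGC
Psmc4 (chr7:28050102-28050342, minus strand): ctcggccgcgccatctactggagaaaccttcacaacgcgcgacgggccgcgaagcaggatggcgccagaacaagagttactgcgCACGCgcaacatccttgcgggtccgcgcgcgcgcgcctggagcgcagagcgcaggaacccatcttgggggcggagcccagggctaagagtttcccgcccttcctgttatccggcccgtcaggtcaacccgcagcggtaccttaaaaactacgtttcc
Psmf1 (chr2:151741311-151741560, minus strand): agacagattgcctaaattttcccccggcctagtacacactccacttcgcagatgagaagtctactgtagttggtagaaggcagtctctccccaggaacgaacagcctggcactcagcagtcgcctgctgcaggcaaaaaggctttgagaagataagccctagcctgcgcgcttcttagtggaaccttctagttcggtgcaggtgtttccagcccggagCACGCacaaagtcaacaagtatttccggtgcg
The window of Psmb5 held ACGTG with its first base 58 bases before the start and TGACNNNGC 47 bases before it. In Psmb6, TGACNNNGC began 9 bases before the start. The windows of Psmc4 and Psmf1 each held GCGTG on the opposite strand, 166 and 32 bases before the start.

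Sequencing depth was between 19845791 and 30809327 reads on genes per library. The proteasome subunit genes together took 0.798%, 0.767% and 0.787% of these reads in Mock, compared with 0.804%, 0.845% and 0.831% in HIF-1α-KD libraries. This share of the library total did not overlap between the groups. For normalized counts the groups did not overlap in 19.2% of single genes tested, and the frequency among summed shares was not counted. By class, the ATPase genes took between 0.0951% and 0.1003% in Mock and between 0.102% and 0.115% in HIF-1α-KD libraries, and the lid and remaining genes between 0.371% and 0.373% and between 0.392% and 0.407%. The shares of the core genes overlapped, between 0.300% and 0.330% in Mock and between 0.310% and 0.330% in HIF-1α-KD libraries. A share depends on the library total, and when each library was scaled by its total the median log2 fold change of all genes tested was 0.08, compared with 0.02 for the normalized counts. The targeted gene Hif1a had normalized counts (reads divided by 1 factor per library) of 6914, 5424 and 4945 in Mock, compared with 697, 3142 and 1928 in HIF-1α-KD libraries. All 3 HIF-1α-KD values lay below the Mock values, although the residual level differed between the libraries (log2 fold change -1.82 ± 0.46 SE, limma adjusted p = 0.219). The markers of other cell types were checked in the sorted cells as summed FPKM, the reads per kilobase of transcript scaled to the depth of the library. Leukocyte markers, among them Cd3e with fewer than 10 normalized counts in every library, summed to between 98.2 and 107 in Mock and between 67.0 and 366 in HIF-1α-KD libraries, with the highest sum in HIF-1α-KD replicate 3. Endothelial markers summed to between 3.83 and 6.38 over all libraries. Markers of fibroblasts summed to between 1942 and 3662 in Mock and between 4591 and 5221 in HIF-1α-KD libraries, mainly through Col3a1. Among the 9 leukocyte and 6 fibroblast markers, 0 and 2 had an unadjusted p under 0.05 in limma and 0 passed after adjustment, while Col3a1 passed in DESeq2 (adjusted p = 0.0040). Of the 6 endothelial markers 3 were tested, and Cdh5 had an unadjusted p under 0.05 in limma with a log2 fold change of -0.84 (adjusted p = 0.294), while Pecam1 and Tek had log2 fold changes of 0.26 and 1.26 and did not pass. The part of these markers in the values below was not tested. Of 8 intestinal epithelial markers only 3 passed the filter. The sum of all 8 was 14.6 in Mock replicate 3 and between 1.38 and 3.13 in the other libraries. The cells labelled as colon adenocarcinoma thus carried little epithelial marker RNA. In bulk samples, a smaller share of cells that express a gene and less of its RNA per cell cannot be told apart.

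None of the 44 tested proteasome subunit genes passed the test for a difference between HIF-1α-KD and Mock cells. At an adjusted p under 0.05 in limma on log2 of the normalized count plus 1, 0 members passed, against 47 of 12014 genes, or 0.391% of all genes tested (0.00832% higher and 0.383% lower in HIF-1α-KD cells). In edgeR and DESeq2, 0 members passed at that threshold too, against 0.391% and 2.36% of all genes. At an unadjusted p under 0.05, 0 members passed in limma, in edgeR and in DESeq2, where the same threshold was passed by 12.7%, 12.4% and 13.0% of all genes. The smallest unadjusted p in limma among the members was 0.095, for Psmc5, and the adjusted p-values of limma lay between 0.476 and 0.997. Of the members, 21 had a log2 fold change above 0 and 23 below it, where 52.7% of all genes tested lay above 0. Their median log2 fold change was -0.01 and that of all genes was 0.02.

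The log2 fold changes ranged from -0.30 for Psmc6 to 0.34 for Psmg3, and no member differed by 1.5-fold, a size reached by 13.4% of all genes. For 44 of 44 members the 95% confidence interval of limma lay within 2-fold in either direction, as it did for 71.1% of all genes tested. Within 1.5-fold lay the intervals of 39 members and of 32.1% of all genes. The standard error of the log2 fold change was 0.151 in the median member and 0.209 in the median gene, and the median residual SD between replicates was 0.163 for members, 0.253 for all genes and 0.219 for the 7846 genes with a level within the range of the members. A difference smaller than these intervals could not be detected with these libraries.

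**Figure D1:**
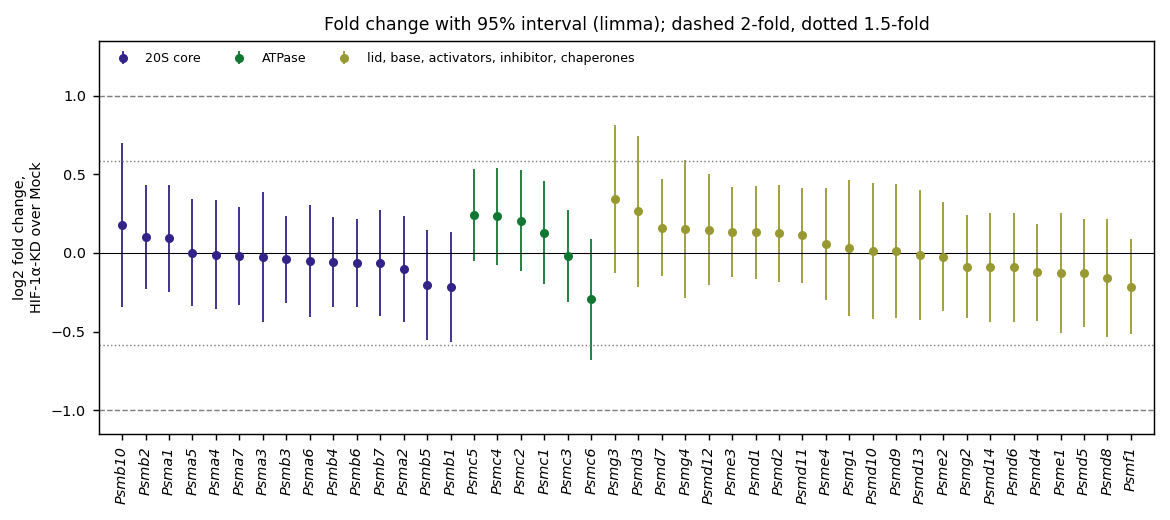
Log2 fold change of HIF-1α-KD over Mock for 44 proteasome subunit genes, ordered within 3 classes; points are the limma estimates, bars their 95% confidence intervals, dashed lines mark 2-fold and dotted lines 1.5-fold. All 44 bars cross 0 and stay inside 2-fold, and those of Psmg3, Psmd3, Psmb10, Psmg4 and Psmc6 pass a 1.5-fold line.

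In normalized counts, 3 members had groups that did not overlap, 6.82% of those tested, where 19.2% of all genes tested had such groups. They were the ATPase genes Psmc5 and Psmc4, higher in HIF-1α-KD cells, and the inhibitor gene Psmf1, lower. Groups that did not overlap and were higher in HIF-1α-KD cells made up 10.4% of all genes, and those that were lower 8.75%. The list depended on the scaling. In FPKM, Psmc2, Psmc4, Psmc5, Psmd1, Psmd7 and Psme3 had groups that did not overlap, all higher in HIF-1α-KD cells, and the groups of Psmf1 overlapped. The share of all genes with such groups in FPKM was not counted.

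As a class, the members were abundant transcripts. Their median level was 167 FPKM, above that of 94.5% of the genes tested, whose median was 13.8 FPKM, and 30 of the 44 lay in the top 10% of genes. Core genes had a median of 225 FPKM, ATPase genes 139 FPKM and the remaining genes 133 FPKM. The SD over the 6 libraries was 10.6% of the mean FPKM in the median member and 20.6% in the most variable.

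**Figure D2:**
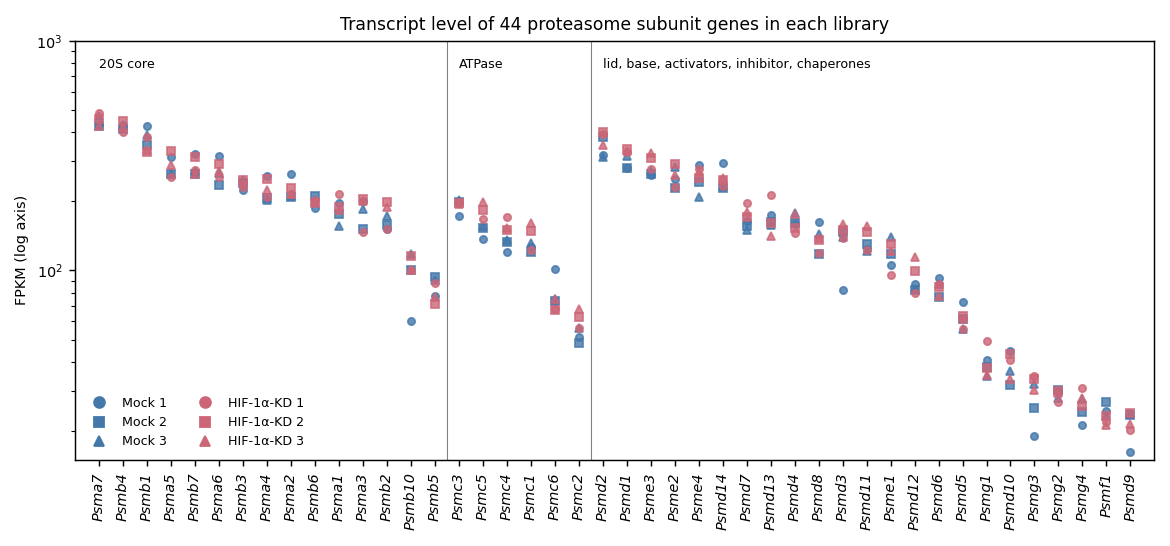
FPKM on a log axis for 44 proteasome subunit genes, ordered by mean within 3 classes; each point is 1 of 6 libraries, blue for Mock and red for HIF-1α-KD. Points of a gene lie close together and the colors mix in most genes, while levels between genes range from 21.5 FPKM for Psmd9 to 448 FPKM for Psma7.

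Of the 15 tested genes of the 20S core, 4 had a log2 fold change above 0 and 11 below, and groups without overlap were found in 0 of them. Their median log2 fold change was -0.04, or -0.06 relative to all genes, and it lay between -0.12 (without Mock replicate 2) and 0.00 (without Mock replicate 1) relative to all genes when each library was left out, with -0.098 without HIF-1α-KD replicate 2. The log2 fold changes of the alpha ring genes ranged from -0.10 for Psma2 to 0.09 for Psma1, and their mean FPKM stayed within 2.47-fold of each other, while the core as a whole spanned 5.40-fold. Psma7 (ENSMUSG00000027566, chr2:180036374-180042433 in GRCm38), an alpha ring subunit, was the most abundant member. It had 430, 427 and 471 FPKM in Mock, compared with 485, 455 and 424 FPKM in HIF-1α-KD libraries, and the values of the groups mixed.

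The 3 constitutive catalytic subunits did not pass the test. Psmb5 (chr14:54614119-54618022), the chymotrypsin-like subunit, had 1723, 1960 and 2020 normalized counts in Mock, compared with 1904, 1481 and 1584 in HIF-1α-KD libraries. The values of the 2 groups overlapped through HIF-1α-KD replicate 1, and the log2 fold change was -0.20 ± 0.15 (SE) with an interval from -0.55 to 0.14. It was -0.31 without HIF-1α-KD replicate 1 and -0.13 without HIF-1α-KD replicate 2. At 83.0 FPKM, Psmb5 was the lowest of the tested core genes. Psmb6 (chr11:70525367-70527858), the caspase-like subunit, had 3744, 3950 and 4020 normalized counts against 3912, 3645 and 3672, a log2 fold change of -0.06 ± 0.12, or -0.093 without HIF-1α-KD replicate 1. Psmb7 (chr2:38588036-38644087), the trypsin-like subunit, had 7274, 5619 and 6106 against 6007, 6600 and 5531, a log2 fold change of -0.06 ± 0.15. For Psmb6 the values mixed across groups, and for Psmb7 the highest value came from Mock replicate 1. Psmb1, a structural beta ring subunit, had a log2 fold change of -0.22 ± 0.15, with 11400, 8775 and 10310 normalized counts in Mock, compared with 9842, 8131 and 8239 in HIF-1α-KD libraries. Mock replicate 2 lay among the HIF-1α-KD values, and the log2 fold change was -0.13 without Mock replicate 1 and -0.32 without Mock replicate 2.

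Of the inducible catalytic subunits, which replace the constitutive ones in the immunoproteasome of interferon-exposed and immune cells, only Psmb10 is a member. Psmb10 (chr8:105935735-105938444) had 1968, 3071 and 3812 normalized counts in Mock, compared with 3169, 3477 and 3033 in HIF-1α-KD libraries. The low value of Mock replicate 1 set the direction, since the log2 fold change was 0.18 ± 0.23 with all libraries and -0.09 without that library. The subunits exchanged for one another were also compared as a ratio of FPKM within each library. Psmb10 over Psmb7 was 0.189, 0.381 and 0.436 in Mock, compared with 0.368, 0.368 and 0.383 in HIF-1α-KD libraries (two-sided exact permutation p = 0.9). Psmb8 over Psmb5 was 2.44, 1.90 and 2.65 against 2.18, 3.23 and 2.52 (p = 0.5, exact permutation). Psmb9 over Psmb6 was 0.407, 0.397 and 0.582 against 0.384, 0.614 and 0.496 (p = 0.7, exact permutation). In these 3 ratios the groups overlapped, and with 3 libraries per group the smallest two-sided p the permutation test allows is 0.1. In every library the transcript of Psmb8 was more abundant per length than that of Psmb5.

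Both members that were not tested belong to the core and are known from single tissues. Psma8, the alpha subunit of the testis, had at most 2 reads in a library and 3 reads in all. Psmb11, the catalytic subunit of the thymus cortex, had 0 reads in each library, which allows a level of up to 3 reads, or between 0.0229 and 0.0356 FPKM, counting error only.

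Of the 6 ATPase genes, 0 passed the test, and 4 lay above 0 and 2 below, with a median log2 fold change of 0.17, or 0.15 relative to all genes. This median lay between 0.07 and 0.21 relative to all genes when each library was left out. Psmc5 (ENSMUSG00000020708, chr11:106256154-106263120), an ATPase of the base, had 4801, 4982 and 5422 normalized counts in Mock, compared with 5621, 5950 and 6412 in HIF-1α-KD libraries. The 3 HIF-1α-KD values were all above the 3 Mock values, the means being 5068 ± 319 and 5994 ± 397 (SD, n = 3), and the log2 fold change was 0.24 ± 0.13 (SE, limma adjusted p = 0.476). Scaled by library total, the unadjusted p of limma was 0.0497 and the adjusted p 0.372.

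Psmc4 (chr7:28041707-28050101), named because its groups did not overlap, had 3057, 3168 and 3455 normalized counts in Mock, compared with 4222, 3560 and 3617 in HIF-1α-KD libraries. The gap between the groups was small beside the spread, and the log2 fold change was 0.23 ± 0.14 (limma adjusted p = 0.518). Psmc2 (chr5:21785283-21803787), with the lowest FPKM of the ATPases at 57.1, had 3452, 3053 and 3762 normalized counts against 3659, 3907 and 4259, a log2 fold change of 0.21 ± 0.14. Psmc3, with the highest FPKM of the ATPases at 194, had 172, 200 and 203 FPKM in Mock, compared with 196, 197 and 195 FPKM in HIF-1α-KD libraries. The log2 fold change was -0.02 ± 0.13.

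Psmc6 (ENSMUSG00000021832, chr14:45329788-45349705) had the lowest log2 fold change of the tested members. It had 4051, 2750 and 3007 normalized counts in Mock, compared with 2620, 2490 and 2775 in HIF-1α-KD libraries. The high value of Mock replicate 1 stood apart, the groups overlapped, and the log2 fold change of -0.30 ± 0.17 (limma adjusted p = 0.508) was -0.13 without that library. The FPKM ratio of Psmc5 to Psmc6, a pair chosen after their values were seen, was 1.36, 2.08 and 2.07 in Mock, compared with 2.46, 2.74 and 2.65 in HIF-1α-KD libraries. These groups did not overlap, and being chosen for its size the difference is given without a test.

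**Figure D3:**
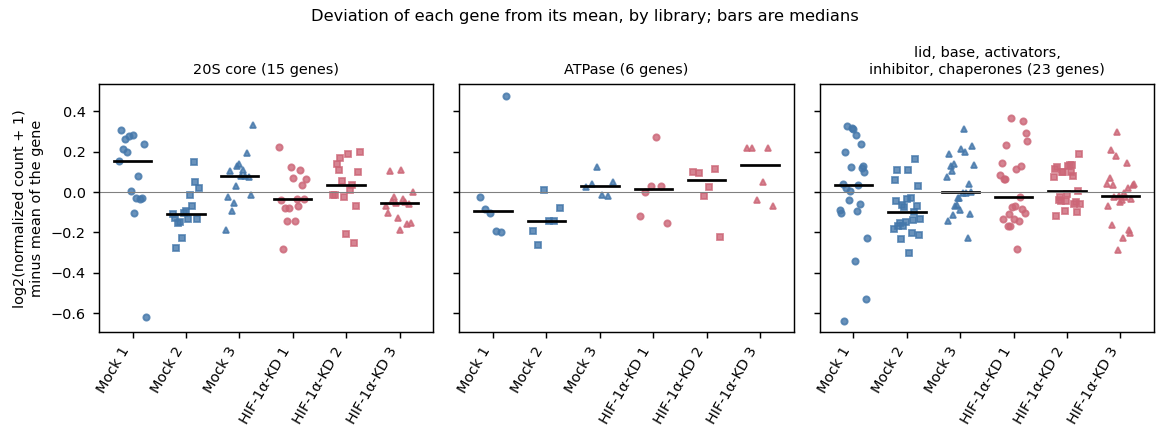
Deviation of each gene from its mean over 6 libraries, in log2(normalized count + 1), by library for the core, ATPase and remaining genes; points are genes and bars medians. Mock 1 has the highest median of the core genes at 0.15 and the widest scatter, Mock 2 the lowest median in all 3 panels, and the ATPase median is highest in HIF-1α-KD 3 at 0.13.

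The 23 remaining genes were split, 13 above 0 and 10 below, with a median log2 fold change of 0.01. Of the 3 base subunits without ATPase activity, the scaffold genes Psmd1 and Psmd2 had log2 fold changes of 0.13 and 0.12. Psmd2 (chr16:20651652-20663414) was the most abundant gene of this class, with 318, 381 and 311 FPKM in Mock, compared with 391, 399 and 353 FPKM in HIF-1α-KD libraries. Psmd4, the ubiquitin receptor of the base, had 5113, 4810 and 5664 normalized counts in Mock, compared with 4525, 4573 and 5208 in HIF-1α-KD libraries. HIF-1α-KD replicate 3 lay inside the Mock range, and the log2 fold change was -0.12 ± 0.14.

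Of the 8 lid genes, 4 lay above 0 and 4 below. Psmd14 (chr2:61711694-61800376), the deubiquitinase that cleaves ubiquitin from the substrate, had 5199, 3766 and 4089 normalized counts in Mock, compared with 3974, 4053 and 4124 in HIF-1α-KD libraries. Mock replicate 1 was high and the remaining libraries lay between 3766 and 4124, and the log2 fold change of -0.09 ± 0.15 was 0.05 without Mock replicate 1. Psmd3 (chr11:98682554-98695979), a lid subunit, showed the reverse, with 3916, 6575 and 6668 normalized counts in Mock, compared with 6365, 6639 and 7047 in HIF-1α-KD libraries. The log2 fold change of 0.26 ± 0.21 rested on the low value of Mock replicate 1 and was 0.01 without Mock replicate 1.

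The activators open the core in place of the 19S cap. Psme1, a subunit of the 11S activator that interferon induces, had 2243, 2350 and 2979 normalized counts in Mock, compared with 1970, 2566 and 2388 in HIF-1α-KD libraries, which gave a log2 fold change of -0.13 ± 0.17. It was -0.017 without HIF-1α-KD replicate 1, -0.0012 without Mock replicate 3 and -0.21 without HIF-1α-KD replicate 2 or Mock replicate 1. Its partner Psme2 had 3960, 3359 and 4438 against 3502, 4235 and 3792, a log2 fold change of -0.02 ± 0.15. For both genes the groups overlapped. The reads of Psme2 could be shared with its near copy Psme2b, which held between 41.0 and 92.4 normalized counts. The nuclear activator Psme3 and the single-chain activator Psme4 had log2 fold changes of 0.13 and 0.06.

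Psmf1 (ENSMUSG00000032869, chr2:151715812-151744186), which encodes the inhibitor PI31, had 1541, 1592 and 1460 normalized counts in Mock, compared with 1341, 1372 and 1246 in HIF-1α-KD libraries. On this scale every HIF-1α-KD value lay below every Mock value, the means being 1531 ± 66.6 and 1320 ± 65.7 (SD, n = 3). In FPKM the groups overlapped, with 23.15 in Mock replicate 3 and 23.34 in HIF-1α-KD replicate 2. The log2 fold change was -0.21 ± 0.13 with an interval from -0.52 to 0.09 (limma adjusted p = 0.544).

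Assembly chaperones, which help to build the ring of the core or of the base and leave the finished particle, had a median of 29.1 FPKM over 7 genes. Psmg3 (chr5:139823592-139826885), a chaperone of the alpha ring, had the largest log2 fold change among the tested members, 0.34 ± 0.21 (limma adjusted p = 0.531). It had 651, 811 and 1099 normalized counts in Mock, compared with 1149, 1072 and 961 in HIF-1α-KD libraries. Mock replicate 3 lay among the HIF-1α-KD values, and without that library the log2 fold change was 0.54, the unadjusted p of limma was 0.021 and the adjusted p 0.370. Without Mock replicate 1 the log2 fold change was 0.16. Psmd9, a chaperone of the base and the least abundant tested member, had 16.1, 23.5 and 23.8 FPKM against 20.2, 24.1 and 21.5 FPKM. Its log2 fold change of 0.01 ± 0.19 turned to -0.15 without Mock replicate 1 and was also below 0 with TMM scaling, GC correction, edgeR and DESeq2.

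Mock replicate 1 was the highest of the 6 libraries for 16 of 44 members (36.4%, against 24.4% of all genes tested) and the lowest for 8 (18.2%, against 27.1%). Mock replicate 2 was the lowest for 15 members (34.1%, against 9.93% of all genes). The deviation of Mock replicate 1 from the other Mock libraries moved with the deposited GC content of the transcript. Across the 44 members the Pearson correlation was -0.77 and the Spearman correlation -0.82, and across all 12014 genes tested they were -0.50 and -0.55. These are descriptions of genes within the same libraries, and genes are not independent replicates. Mock replicate 1 exceeded the mean of the other Mock libraries in 21 of the 22 members below the median GC content of 49.65% and in 6 of the 22 above it. After a loess correction for GC content, chosen after seeing the data, 0 of 44 members had an unadjusted p under 0.05 in limma, against 14.3% of all genes, and the largest log2 fold change in size was 0.28.

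**Figure D4:**
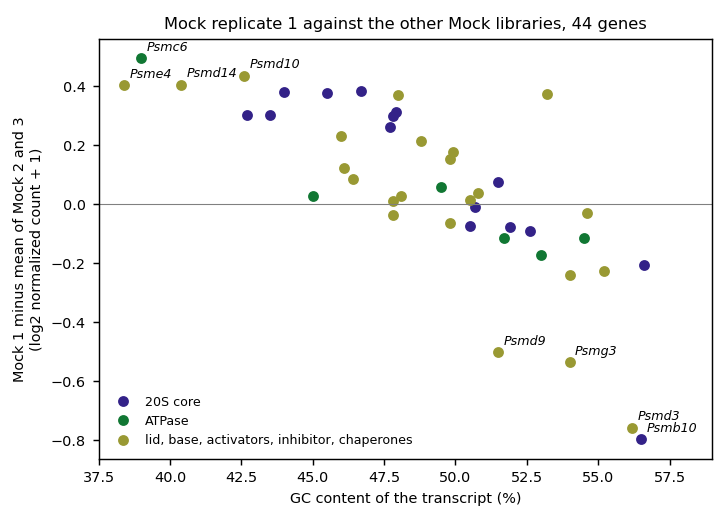
GC content of the transcript in percent against the log2 difference of Mock replicate 1 from the mean of Mock replicates 2 and 3, for 44 proteasome subunit genes colored by class. Points fall from upper left to lower right, from Psmc6 at 0.49 to Psmb10 at -0.80.

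Motif letters in the 250 bases upstream of the RefSeq start were counted on both strands in the 38 members with an entry in the promoter table. Psma8, Psmb1, Psmb2, Psmb7, Psmc3, Psmd3, Psmd7 and Psmg2 had none. ACGTG was present in 8 members (21.1%), against 18.5% of all 27025 promoters and 25.2% of the promoters of genes tested here. GCGTG was present in 17 members (44.7%, against 30.9% and 51.0%), and either of them in 21 (55.3%, against 41.5% and 62.1%). Members with either motif had a median log2 fold change of 0.00 and members without it -0.05. TGACNNNGC, which can overlap ACGTG by its letters, was present in 5 members (13.2%, against 11.5% and 14.0%), namely Psmb5, Psmb6, Psmc6, Psmd12 and Psmd9, whose median log2 fold change was -0.06. The ETS motif CCGGAAG was present in 12 members (31.6%, against 7.83% and 16.1%), with a median log2 fold change of 0.09 in those and -0.02 in the others. A match describes letters in the window and no site in use, and the motifs were chosen with results known.

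Genes around the proteasome were taken from a list of 30 ubiquitin-proteasome genes, of which 29 were tested, 14 with a log2 fold change above 0 and 15 below. At an adjusted p under 0.05, 0 passed in limma, edgeR and DESeq2, and at an unadjusted p under 0.05, 2 passed in limma and 4 each in edgeR and DESeq2, against 12.7%, 12.4% and 13.0% of all genes tested. Groups did not overlap in 17.2% of them, against 19.2% of all genes tested. Nfe2l1 (ENSMUSG00000038615, chr11:96817414-96829968) encodes the transcription factor NRF1, which drives proteasome genes when proteasome activity is limiting. It had 4720, 6140 and 5633 normalized counts in Mock, compared with 8332, 7530 and 8291 in HIF-1α-KD libraries. All 3 HIF-1α-KD values were above the Mock values, and the log2 fold change was 0.56 ± 0.14 (limma adjusted p = 0.231, with a range from 0.059 to 0.474 over the alternatives). Ddi2 and Ngly1, listed with Nfe2l1 under the NRF1 route, had log2 fold changes of 0.37 and -0.27 and did not pass an unadjusted p of 0.05 in limma. At that threshold 0 of the 44 members passed, and a link between Nfe2l1 and the members was not tested.

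Rps27a, which encodes ubiquitin fused to a ribosomal protein, was the other gene of the list with an unadjusted p under 0.05 in limma. It had 54370, 32190 and 39350 normalized counts in Mock, compared with 27180, 29900 and 30350 in HIF-1α-KD libraries, with Mock replicate 1 highest and no overlap between the groups. Its log2 fold change was -0.49 ± 0.20 (limma adjusted p = 0.378), and -0.29 without Mock replicate 1. Pomp, the maturation factor of the core, had 5460, 4470 and 5741 normalized counts against 5616, 5535 and 5490, a log2 fold change of 0.09 ± 0.14.

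**Figure D5:**
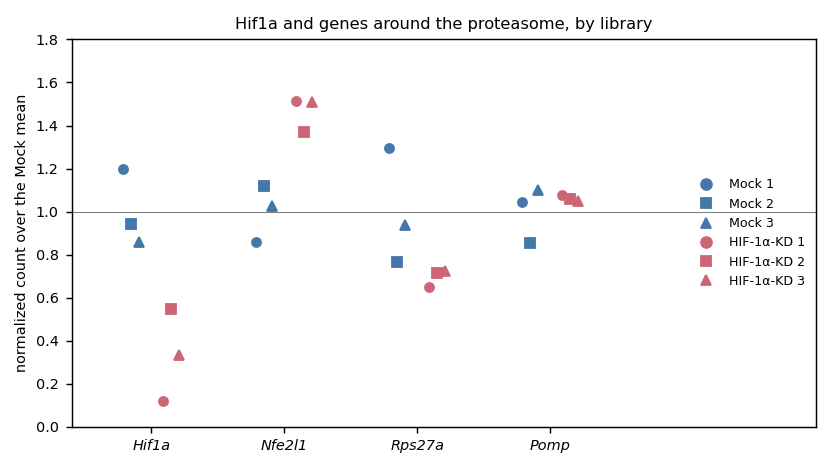
Normalized count divided by the Mock mean, on a linear axis from 0, for Hif1a and 3 genes around the proteasome in 3 Mock (blue) and 3 HIF-1α-KD (red) libraries. The red points of Hif1a and Rps27a lie below the blue ones, those of Nfe2l1 above, and those of Pomp mix with them.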

How the data were processed

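Polyadenylated RNA of 3 Mock and 3 HIF-1α-KD samples was sequenced from a single end with a stranded kit. According to the methods, the authors aligned reads with STAR, counted them with featureCounts and used DESeq2, and the processing notes name GRCm38 and edgeR. The methods name GRCh38, whereas the gene identifiers are from mouse. The authors deposited normalized counts, a signal in which each count was divided by 1 factor per library and printed to 4 significant digits, and FPKM values. The deposited log2 ratios, p-values and false discovery rates are the authors' own comparison and were not used. Deposited GC content is a fraction per transcript, shown here in percent.

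Whole reads were recovered from the normalized counts, and 100% of values up to 300 reads were whole within 0.1. Genes were filtered with filterByExpr of edgeR 4.0.16 (minimum count of 10, by condition). HIF-1α-KD was compared with Mock by limma 3.58.1 with a trend on log2(normalized count + 1), two-sided, with Benjamini-Hochberg adjustment over 12014 genes, so that fold changes are on this scale. edgeR and DESeq2 1.42.0 were run on recovered reads as alternatives, beside other scaling, filters and pseudocounts (0.1 and 10), a replicate block and leaving out each library. The steps were tested on simulated data. Ratios of FPKM were compared with exact permutation tests. Gene positions come from GENCODE M21 (GRCm38) and promoters from RefSeq. R 4.3.3 and Python 3.11.15 were used.

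The members and lists were chosen with earlier results of these data known, so no list was tested as a set. Members named are those with an unadjusted p under 0.05, the 3 with the largest change in each direction, the catalytic subunits, Psmb10, Psme1, Psme2, Psmd4 and Psmd14, the most and least abundant of each class and those under the filter. Psmc4, Psma1, Psma2, Psmd1, Psmd7, Psme3, Psme4 and Psmg4 were named after values were seen. An interferon list of 9 genes had 0 genes at an adjusted p under 0.05 in limma, 1 in DESeq2 (Nlrc5, against 2.36% of all genes), and 1 at an unadjusted p under 0.05 in limma (against 12.7%). Of the list of 30, Paaf1 was not analysed here, and some genes of the lists are not reported here by name.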

Additional observations from a re-analysis of the deposited data

How the results depend on the processing

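The count of proteasome subunit genes past an adjusted p of 0.05 was 0 under each alternative run. At an unadjusted p under 0.05 there was 1 member when scaling by library total (Psmc5), against 13.4% of all genes, and 1 without Mock replicate 3 (Psmg3), against 11.8%. The 3 class medians relative to all genes moved by less than the spread between replicates. Over 16 alternatives the 19 named members gave 304 values, of which 285 kept their direction and 19 changed sign, none past the threshold. Limma without a trend, without the filter on low counts or with a replicate block leaves the log2 fold changes as they are, so no sign could change there. Pseudocounts of 0.1 and 10 changed them little at these counts. The count over all genes was less stable, 283 in DESeq2 (96 higher and 187 lower), 1 in limma without a trend, 1529 at an unadjusted p, and between 0 and 38 when a library was left out, with 0 without HIF-1α-KD replicate 2 or Mock replicate 3, 2 without Mock replicate 1, 8 without HIF-1α-KD replicate 3 and 11 without Mock replicate 2. The causes were not tested. At an unadjusted p, 2 of the other ubiquitin-proteasome genes passed. Psmd9 turned to -0.018 in DESeq2, -0.027 in edgeR, -0.0098 with TMM and -0.031 with GC correction. GC correction also turned Psmd14 to 0.0040 and Psmb9 to -0.019. Scaling by library total, which moved the median of all genes to 0.08 on the log2 scale, turned Psma7 to 0.038, Psmc3 to 0.037, Psme2 to 0.033 and Psmb8 to 0.028. Leaving out a library gave log2 fold changes of -0.13 to 0.071 for Psme2, -0.15 to 0.12 for Psmd9, -0.10 to 0.24 for Psmb9, -0.085 to 0.042 for Psma7, -0.14 to 0.042 for Psmb7, -0.14 to 0.12 for Psmb8, -0.087 to 0.39 for Psmb10, -0.19 to 0.045 for Psmd14, -0.013 to 0.17 for Pomp and -0.076 to 0.039 for Psmc3. Of the named members whose sign held, the range was -0.21 to -0.0012 for Psme1, -0.31 to -0.13 for Psmb5, -0.32 to -0.13 for Psmb1, -0.19 to -0.059 for Psmd4, 0.085 to 0.19 for Psmd2, 0.13 to 0.28 for Psmc2, -0.093 to -0.040 for Psmb6, -0.41 to -0.13 for Psmc6, 0.012 to 0.40 for Psmd3, 0.16 to 0.54 for Psmg3, 0.19 to 0.29 for Psmc5 and -0.25 to -0.17 for Psmf1. For other genes it was -2.30 to -1.21 for Hif1a, 0.45 to 0.64 for Nfe2l1 and -0.67 to -0.29 for Rps27a. The libraries share replicate numbers only. Same-numbered libraries correlated at -0.139, -0.123 and 0.0228 in their deviations, so they were not taken as pairs, and with a replicate block 0 members and 0 of all genes passed (1324 at an unadjusted p in limma). The tested members had at least 228 reads in each library, and the 3 libraries per group limit the precision.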
